A study of Mus musculus with 6 samples.

Results

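The genes described are 27 members of the cholesterol synthesis pathway and of the SREBP system that controls it: 20 enzymes from acetyl-CoA to cholesterol, 5 regulators (Insig1, Insig2, Srebf1, Srebf2 and Scap) and the sterol handling genes Stard4 and Soat1. The rule names genes of the pathway and uses no measured value, but the list was drawn up with earlier results of these data known. On the arrays, 25 of the 27 had a probeset (the set of probes that measures a gene) annotated to that gene symbol alone. Acat2 and Soat1 had none and are not analysed here. Ebp had a probeset under the intensity limit set for testing, so 24 members were tested, among 14994 genes in all.

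RNA came from KSL SLAM cells of mouse bone marrow, a gate rich in blood stem cells that lack lineage markers, CD41 and CD48 and carry CD150, Sca-1 and c-Kit. For 7 days the mice were given either PBS or G-CSF, the cytokine that drives granulocyte production, at 125 mcg/kg under the skin in 2 injections per day. There were 3 MoGene 1.0 ST arrays for PBS and 3 for G-CSF, and every array held an independent pool of 5 to 10 mice. Neither strain, sex nor age is stated in the sources used here. The pools hide differences between mice, and on bulk RNA fewer cells of a type and less RNA per cell cannot be told apart.

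Cholesterol is built from acetyl-CoA through mevalonate, isoprenoid diphosphates, squalene and lanosterol. The transcription factors SREBP-1 and SREBP-2, encoded by Srebf1 and Srebf2, lie in the endoplasmic reticulum bound to the escort protein SCAP. When membrane sterol is low SCAP carries them to the Golgi, where proteases release the active part that switches on the pathway's enzymes, and when sterol is high INSIG proteins hold the complex back. Sterol efflux is a separate process from synthesis. In mouse blood-forming tissue, stem and progenitor cells accumulate when the efflux transporters Abca1 and Abcg1 are lacking.

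Most members had lower mean intensity with G-CSF, by small amounts, and none passed the test for a difference. Of the 24 tested, 19 had negative and 5 had positive differences (G-CSF minus PBS on the log2 scale), with a median of -0.25 that was -0.11 without PBS replicate 2. Over all 14994 genes 49.7% of differences were negative and the median was 0.002. At a limma adjusted p under 0.05, 0 members were called in either direction, where 0.0267% of all genes were called higher and 0 lower. The smallest limma adjusted p was 0.665 among the members and 0.115 among all genes with a negative difference. At an unadjusted limma p under 0.05, 2 members (Nsdhl and Insig1) were lower and 0 were higher, against 3.3% and 2.73% of all genes. The groups did not overlap in 4 tested members (Insig1, Nsdhl, Srebf2 and Mvk), each lower with G-CSF, against 5.05% of all genes apart in that direction and 5.77% in the other. A difference of more than 1.5-fold was found in 5 tested members, all lower with G-CSF, where 4.36% of all genes were that much lower and 2.94% that much higher. These 5 were Insig1, Insig2, Nsdhl, Cyp51 and Msmo1. Ebp, which was too dim to be tested, went the other way, by 1.00 with its groups apart, and is in none of these counts. Leaving out 1 array moved the difference by over 1.5 times, or turned its sign, in 22 of the 24 members, the exceptions being Nsdhl and Insig1. A difference near 0, such as that of Dhcr7 (-0.0003), passes this limit easily, and the share of all genes that moved as much is not given here. Members that share a regulator are not independent of each other, and whether the list as a whole stands apart from other genes was not tested.

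**Figure D1:**
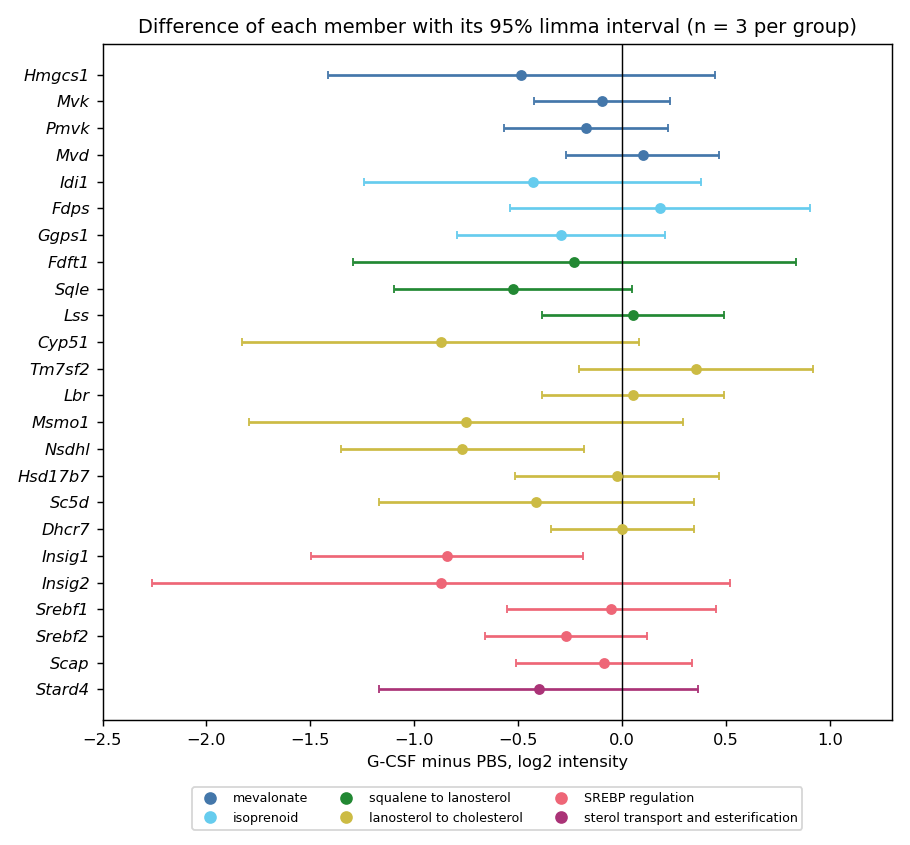
Difference of each tested member in log2 intensity (G-CSF minus PBS, n = 3 arrays per group), coloured by pathway step, with limma's 95% interval as a bar. The intervals of Nsdhl and Insig1 lie wholly below 0 and the other 22 include 0.

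The promoters of members that stand out are given for reference, as the 250 bases before the gene's start in RefSeq (build GRCm38.p6, read on the gene's strand). Hmgcs1 is shown as the member that held a sterol regulatory element core, Cyp51, Nsdhl and Insig1 as members more than 1.5-fold lower, and Ebp as the untested member whose G-CSF arrays all lay above its PBS arrays. Capitals mark TCACNCCAC (the sterol regulatory element core), CCAAT (the box bound by NF-Y, which acts together with SREBP) and GGGCGG (the box bound by Sp1), each searched on both strands.
Hmgcs1, chr13:119690101-119690350, plus strand: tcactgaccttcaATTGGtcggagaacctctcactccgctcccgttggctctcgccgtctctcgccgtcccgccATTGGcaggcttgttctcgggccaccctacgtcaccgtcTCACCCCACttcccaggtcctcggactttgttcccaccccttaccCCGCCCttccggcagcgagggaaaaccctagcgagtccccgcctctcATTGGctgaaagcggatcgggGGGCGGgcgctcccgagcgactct
Cyp51, chr5:4104698-4104947, minus strand: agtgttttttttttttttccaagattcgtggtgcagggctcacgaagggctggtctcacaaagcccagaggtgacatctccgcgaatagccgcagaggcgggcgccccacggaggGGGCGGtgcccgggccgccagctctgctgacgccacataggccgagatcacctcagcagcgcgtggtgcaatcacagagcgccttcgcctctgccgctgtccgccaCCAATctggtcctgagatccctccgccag
Nsdhl, chrX:72918271-72918520, plus strand: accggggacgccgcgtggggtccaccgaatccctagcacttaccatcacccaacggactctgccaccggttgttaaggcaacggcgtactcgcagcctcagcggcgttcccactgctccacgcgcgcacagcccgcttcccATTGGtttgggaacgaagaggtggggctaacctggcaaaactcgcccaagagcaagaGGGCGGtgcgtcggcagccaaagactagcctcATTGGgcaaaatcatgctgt
Ebp, chrX:8193513-8193762, minus strand: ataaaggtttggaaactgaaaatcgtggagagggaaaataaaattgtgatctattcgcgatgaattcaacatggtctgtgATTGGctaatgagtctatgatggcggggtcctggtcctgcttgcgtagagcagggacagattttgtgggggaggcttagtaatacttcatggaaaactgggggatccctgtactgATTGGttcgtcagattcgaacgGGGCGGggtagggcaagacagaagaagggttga
Insig1, chr5:28071162-28071411, plus strand: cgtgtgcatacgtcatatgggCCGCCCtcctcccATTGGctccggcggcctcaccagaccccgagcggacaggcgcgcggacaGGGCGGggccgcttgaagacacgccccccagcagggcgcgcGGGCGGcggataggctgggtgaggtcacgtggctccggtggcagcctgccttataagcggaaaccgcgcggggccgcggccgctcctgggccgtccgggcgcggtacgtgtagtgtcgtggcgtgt
A promoter entry was found for 23 of the 27 members, and a gene with several entries was counted once. Only exact matches to the letters were counted. Other forms of these elements were not searched, so a window without a match may still hold one. CCAAT was present in 21 of these 23 members, against 37.5% of all 27025 genes with an entry and 38.6% of those tested on the arrays. GGGCGG was present in 20 members, against 35.4% of all genes and 57.6% of those tested. The core TCACNCCAC was found in 1 member, against 1.22% of all genes and 1.26% of those tested, and 0 matches overlapped a match to another motif. These letters are a description of the windows, which hold CCAAT both in members that were lower (Nsdhl, Cyp51, Insig1) and in Ebp.

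The first enzymes lead to mevalonate and its diphosphate. Hmgcs1, the synthase that makes HMG-CoA, had log2 intensities of 5.71, 6.95 and 6.39 in PBS replicates 1, 2 and 3 and of 5.21, 6.39 and 5.997 in G-CSF replicates 1, 2 and 3. The groups overlapped, and replicate 1 was the lowest array in both. The difference was -0.48 (SE 0.40, limma adjusted p = 0.963), which is smaller than the SD between replicates (0.62 with PBS and 0.60 with G-CSF). The 3 later enzymes of this stretch, mevalonate kinase (Mvk), phosphomevalonate kinase (Pmvk) and mevalonate diphosphate decarboxylase (Mvd), differed little, by -0.10, -0.17 and 0.10. Mvk was at 6.35, 6.45 and 6.31 with PBS and at 6.29, 6.23 and 6.29 with G-CSF, so its groups did not overlap although their means were 1.07-fold apart. Limma's 95% interval for Mvk ran from -0.42 to 0.23.

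The isoprenoid enzymes make the building blocks that also serve prenylation of proteins. Idi1, the isomerase of isopentenyl diphosphate, was at 5.60, 6.58 and 6.39 with PBS and at 5.43, 6.36 and 5.49 with G-CSF. Here too the groups overlapped, with replicate 1 lowest in both, and the difference was -0.43 (SE 0.34, adjusted p = 0.963). A further probeset of Idi1 gave a difference of 0.003, so the size for this gene rests on which probeset is read. Farnesyl diphosphate synthase (Fdps) was at 7.20, 7.39 and 6.79 with PBS and at 7.09, 7.95 and 6.89 with G-CSF, a difference of 0.18 (SE 0.31) in the opposite direction that was carried by G-CSF replicate 2, and it was -0.14 without that array. Geranylgeranyl diphosphate synthase (Ggps1), which leads away from sterols, differed by -0.29 (SE 0.21).

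Squalene synthase (Fdft1) commits the pathway to sterols, and squalene epoxidase (Sqle) and lanosterol synthase (Lss) turn squalene into lanosterol. Sqle was at 7.47, 7.76 and 7.35 with PBS and at 6.62, 6.92 and 7.46 with G-CSF. G-CSF replicates 1 and 2 lay below every PBS array and G-CSF replicate 3 lay among them. The difference was -0.53 (1.44-fold lower, SE 0.24, limma 95% interval -1.10 to 0.05, adjusted p = 0.855), and without G-CSF replicate 3 it was -0.75. Fdft1 varied more between replicates, with 7.32, 8.10 and 7.43 in PBS and 6.35, 7.71 and 8.10 in G-CSF arrays. Its difference was -0.23 (SE 0.45) and that of its other probeset was 0.28, so no direction can be given for this gene. Lss differed by 0.05 (SE 0.19).

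The steps from lanosterol to cholesterol held most of the larger differences among the enzymes. Nsdhl, a dehydrogenase that takes part in removing methyl groups from the sterol ring, was at 7.43, 7.25 and 8.06 with PBS and at 6.56, 6.85 and 7.01 with G-CSF. Its groups were apart, each G-CSF value being under the lowest PBS value. The difference was -0.77 (1.70-fold lower, SE 0.25, limma 95% interval -1.35 to -0.19, adjusted p = 0.665). Cyp51, the lanosterol demethylase, was at 6.68, 6.03 and 7.05 with PBS and at 4.99, 6.44 and 5.72 with G-CSF. G-CSF replicate 2 lay above PBS replicate 2, so the groups overlapped, and the difference was -0.87 (1.83-fold lower, SE 0.41, adjusted p = 0.855). G-CSF replicate 1 of Cyp51 lay under 5.152, the limit that a gene's mean had to exceed, and without that array the difference was -0.51. Msmo1, the methylsterol oxidase that acts beside Nsdhl, was at 6.92, 7.86 and 7.06 with PBS and at 5.79, 7.45 and 6.35 with G-CSF. Replicate 2 was the highest array of Msmo1 in both groups, and the difference was -0.75 (1.68-fold lower, SE 0.44, adjusted p = 0.932).

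Other enzymes of the last steps differed less or the other way. Sc5d, a sterol desaturase, was at 6.53, 7.62 and 7.19 with PBS and at 6.34, 6.63 and 7.14 with G-CSF, a difference of -0.41 (SE 0.32) with overlapping groups, and of -0.16 without PBS replicate 2. Hsd17b7, the reductase that follows Nsdhl, differed by -0.03 (SE 0.21), and Dhcr7, which makes cholesterol in the final reduction, did so by less than 0.01 with a limma 95% interval from -0.34 to 0.34. Of the pair of sterol reductases that act after Cyp51, Lbr, also the lamin B receptor of the nuclear envelope, differed by 0.05 (SE 0.19). The other, Tm7sf2, was at 5.33, 5.24 and 5.08 with PBS and at 6.07, 5.41 and 5.24 with G-CSF. Its values were dim, and PBS replicate 3 lay under the limit of 5.152. Only G-CSF replicates 1 and 2 exceeded every PBS array for Tm7sf2, and its difference of 0.36 (SE 0.24, adjusted p = 0.94) was the largest positive one among the members tested with all arrays. Without G-CSF replicate 1 it was 0.11, and that of Fdps was then 0.29.

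Ebp, the sterol isomerase that acts before Sc5d, was too dim to be tested. It was at 4.39, 4.69 and 4.65 with PBS and at 5.91, 5.16 and 5.68 with G-CSF, so each G-CSF value was over the highest PBS value. Its mean over the 6 arrays lay under the limit of 5.152 that a gene had to exceed to be tested, and so did each of its PBS arrays. In the fit with no filter on dim probesets the difference was 1.00 (limma adjusted p = 0.382), and its size rests on PBS values that were all under that limit.

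**Figure D2:**
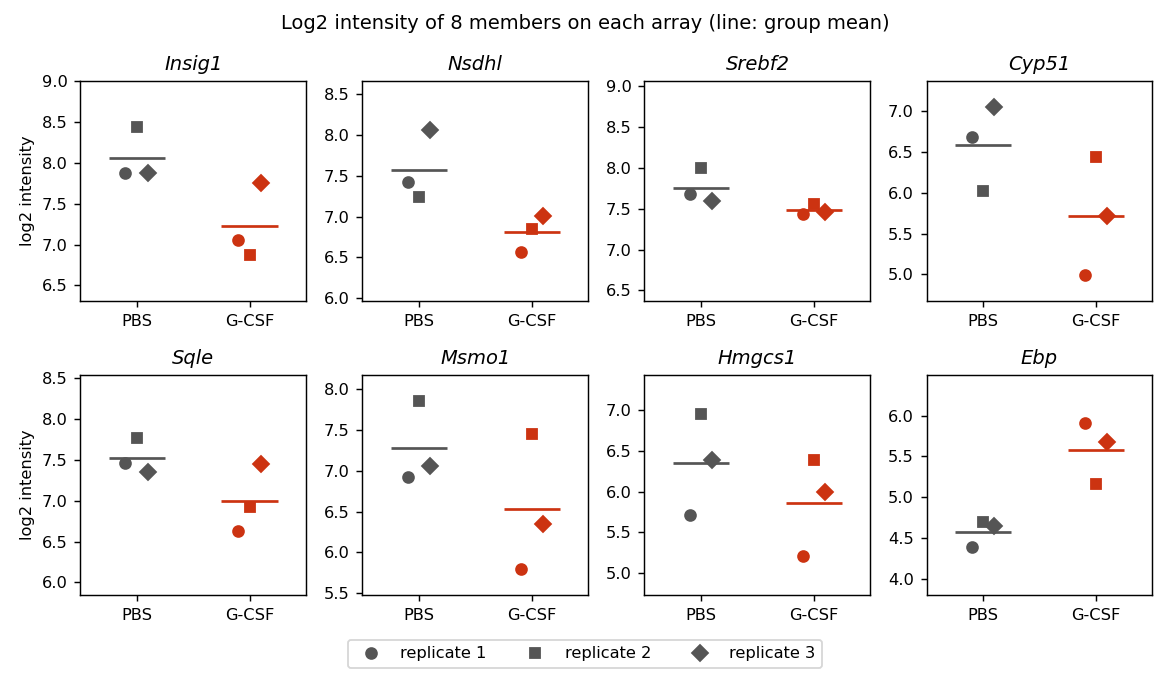
Log2 intensity of 8 members on each array, with 1 symbol per replicate number and a line at the group mean. Every panel spans the same range of log2 units. Insig1, Nsdhl and Srebf2 have every G-CSF array below every PBS array and Ebp has every G-CSF array above, while Cyp51, Sqle, Msmo1 and Hmgcs1 overlap.

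Among the regulators all 5 differences were negative, with a median of -0.27, which was -0.15 without PBS replicate 2. Insig1, which retains the SREBP complex in the endoplasmic reticulum and is itself a target of SREBP, was at 7.88, 8.44 and 7.88 with PBS and at 7.05, 6.87 and 7.75 with G-CSF. The groups did not overlap, although G-CSF replicate 3 lay close to PBS replicates 1 and 3. The difference was -0.84 (1.79-fold lower, SE 0.28, limma 95% interval -1.50 to -0.19, adjusted p = 0.681). Insig2, the paralog of Insig1, was at 6.53, 8.91 and 7.23 with PBS and at 7.25, 6.15 and 6.66 with G-CSF. Its difference was of similar size (-0.87) but its error was larger (SE 0.59, PBS SD 1.22). PBS replicate 2 set most of it, since without that array the difference was -0.19.

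The transcription factor genes differed less. Srebf2, encoding the main activator of cholesterol synthesis, was at 7.68, 7.999 and 7.60 with PBS and at 7.43, 7.56 and 7.47 with G-CSF. Its groups did not overlap, and the difference was -0.27 (1.21-fold lower, SE 0.17, adjusted p = 0.934). Srebf1, whose products favour fatty acid synthesis, was at 6.54, 6.52 and 6.53 with PBS and at 6.27, 6.93 and 6.25 with G-CSF, a difference of -0.05 (SE 0.21). Its PBS arrays were nearly equal and its G-CSF arrays spread to both sides of them. Scap, the escort of both factors, differed by -0.09 (SE 0.18). Stard4, a sterol carrier of the cytosol and a target of SREBP-2, was at 7.48, 7.69 and 6.96 with PBS and at 6.68, 7.64 and 6.61 with G-CSF. Those groups overlapped, and the difference was -0.40 (SE 0.33), or -0.74 without G-CSF replicate 2.

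Averaged by step, the regulators were the group of several members whose array means did not overlap. Their mean log2 intensity was 7.11, 7.76 and 7.14 in the PBS arrays and 6.96, 6.85 and 6.93 in the G-CSF arrays. Insig1 and Insig2 had the largest differences of this step (-0.84 and -0.87), while Srebf2, Srebf1 and Scap differed by -0.27, -0.05 and -0.09. The step mean without Insig1 and Insig2 is not given here. For the mevalonate enzymes the mean log2 intensity was 6.002, 6.38 and 6.14 with PBS and 5.85, 6.14 and 6.03 with G-CSF. For the enzymes from lanosterol to cholesterol it was 6.64, 6.83 and 6.90 with PBS and 6.24, 6.73 and 6.49 with G-CSF. In both of these, replicate 1 was the lowest array of each group and G-CSF replicate 2 lay above PBS replicate 1. The median difference was -0.14 in the mevalonate step, -0.29 in the isoprenoid step, -0.23 from squalene to lanosterol and -0.22 from lanosterol to cholesterol. Without PBS replicate 2 the mevalonate median was -0.062, and without PBS replicate 3 the isoprenoid median was -0.12. The median from lanosterol to cholesterol was -0.03 when Ebp was included with no filter. Over all 24 members the array means were 6.70, 7.08 and 6.83 with PBS and 6.41, 6.74 and 6.61 with G-CSF, overlapping between G-CSF replicate 2 and PBS replicate 1.

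**Figure D3:**
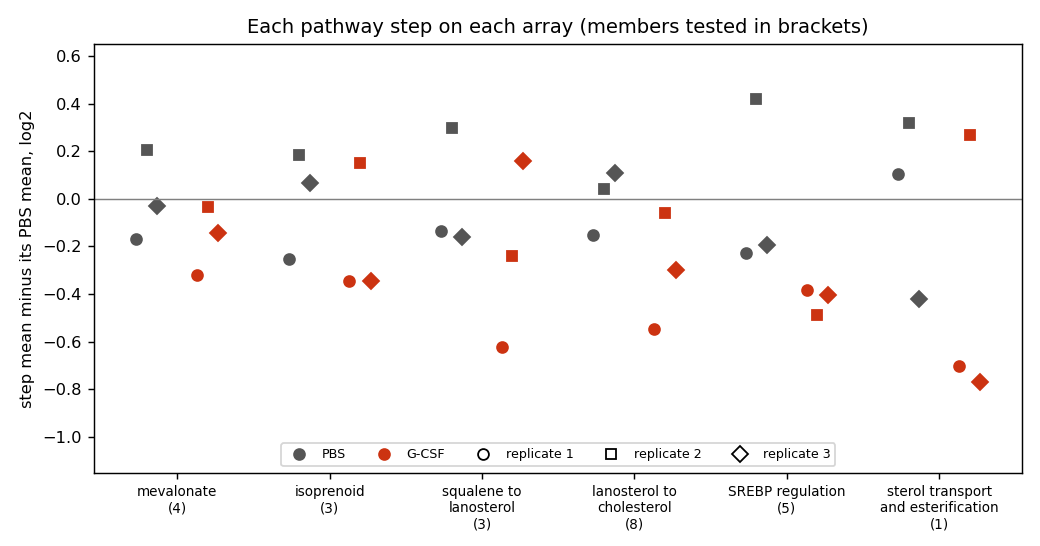
Mean log2 intensity of each pathway step on each array, minus the PBS mean of that step, with grey for PBS, red for G-CSF and 1 symbol per replicate number. The regulators' G-CSF arrays lie at -0.38, -0.49 and -0.40, below their PBS arrays, while in the other steps the groups overlap. Among the regulators, Insig1 and Insig2 have the largest differences.

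Members also varied between replicates of the same group. The median residual SD of the 24 members was 0.33 on the log2 scale, against 0.26 over all genes tested. PBS replicate 2 was the highest PBS array in 14 of the 24 members, where it was the highest in 35.6% of all genes. G-CSF replicate 2 was the highest G-CSF array in 11 members, against 34.8% of all genes. Replicate 1 was the lowest array of both groups in 7 members, namely Hmgcs1, Pmvk, Idi1, Fdft1, Lbr, Msmo1 and Sc5d, against 16.8% of all genes. These members belong to the mevalonate, isoprenoid, squalene and sterol steps. None of them is a regulator, but only 5 regulators were tested, and the steps were not compared in this respect.

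Genes around the pathway were taken from 5 lists, and 0 of their members passed at a limma adjusted p under 0.05. At an unadjusted p under 0.05 Vldlr was higher, and Faf2, Erlin2 and Apoe were lower, where 2.73% of all genes were higher and 3.3% lower. Of 14 listed genes for SREBP proteolysis and sterol sensing 10 were tested, and 5 had negative and 5 had positive differences (median -0.11). Faf2, a membrane factor of protein degradation that also binds INSIG1, was at 7.43, 6.98 and 7.41 with PBS and at 6.13, 6.74 and 6.35 with G-CSF, a difference of -0.87 (SE 0.22, adjusted p = 0.422). Erlin2, which takes part in the degradation of HMG-CoA reductase, differed by -1.08 (SE 0.33, adjusted p = 0.605). In both genes the groups did not overlap. Pgrmc1, a membrane protein that binds INSIG1 and SCAP, differed by -0.71 (SE 0.46, and -0.29 without PBS replicate 3), and Syvn1, a ubiquitin ligase of the endoplasmic reticulum, by 0.35 (SE 0.20).

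Fatty acid synthesis genes are known targets of SREBP-1. Of 12 tested among 15 listed, 9 had negative and 3 had positive differences (median -0.28), against 49.7% negative over all genes, and in 0 of them were the groups apart. The elongase Elovl6 differed by -0.84 (SE 0.38), ATP citrate lyase (Acly), which supplies acetyl-CoA, by -0.45 (SE 0.21), acetyl-CoA synthetase (Acss2) by -0.41 (SE 0.26) and the desaturase Scd2 by -0.53 (SE 0.39), which was -0.085 without G-CSF replicate 1. Their adjusted p ran from 0.855 to 0.952. Prenylation and isoprenoid use genes had 9 negative and 3 positive differences among 12 tested of 14 listed (median -0.09). Fnta, the shared subunit of the prenyl transferases, differed by -0.80 (SE 0.35) with no overlap between groups.

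Sterol uptake and lysosomal export genes had 7 positive and 3 negative differences among 10 tested of 12 listed (median 0.16). Vldlr, the very low density lipoprotein receptor, was at 7.16, 7.28 and 6.37 with PBS and at 9.57, 9.98 and 9.26 with G-CSF. The lowest G-CSF array lay far above the highest PBS array. The difference was 2.67 (SE 0.30), with limma adjusted p = 0.0627, outside the threshold. It passed in 2 of the 15 alternatives, after a further quantile normalization (adjusted p = 0.0392) and when the replicate number was a block (adjusted p = 0.0488). The lysosomal acid lipase Lipa differed by 0.52 (SE 0.27), the scavenger and lipoprotein receptor Lrp1 by 0.33 (SE 0.18) and the lysosomal cholesterol carrier Npc2 by -0.25 (SE 0.23). Of 10 listed LXR and sterol efflux genes 9 were tested, and 5 had positive and 4 had negative differences (median 0.004). Apoe, the apolipoprotein that takes up cell cholesterol, was at 8.58, 8.81 and 9.18 with PBS and at 8.06, 8.60 and 8.26 with G-CSF, a difference of -0.55 (SE 0.22, adjusted p = 0.796). The phospholipid enzyme Lpcat3 differed by 0.73 (SE 0.33), Mylip, which leads lipoprotein receptors to degradation, by -0.36 (SE 0.18) and Rxra, the partner of LXR, by -0.22 (SE 0.18).

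**Figure D4:**
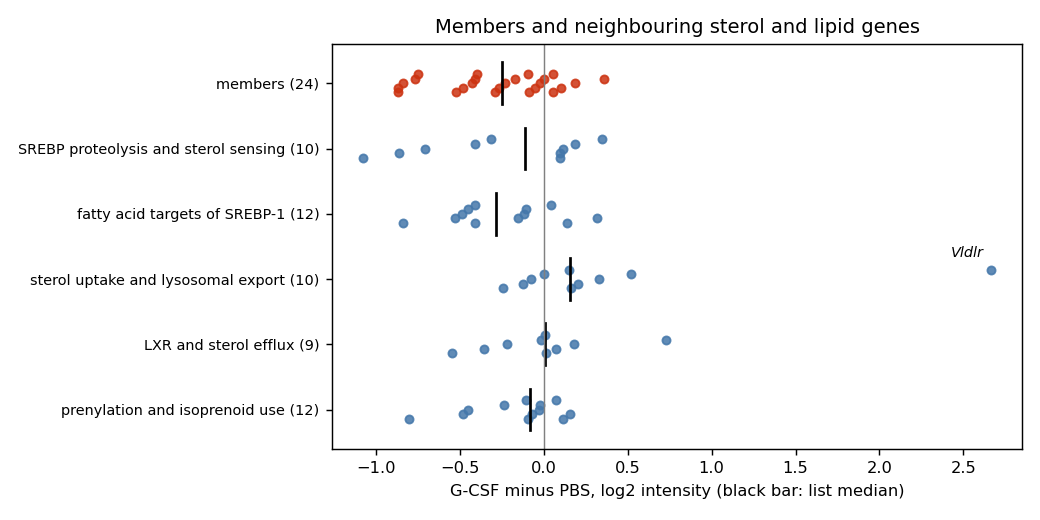
Differences in log2 intensity (G-CSF minus PBS) of the 24 tested members and of 5 lists of neighbouring sterol and lipid genes, with 1 point per gene, the number tested in brackets and a black bar at the list median. The medians run from -0.28 for fatty acid targets to 0.16 for sterol uptake, and Vldlr stands alone at 2.67.

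Markers of other cells were read beside these genes. None of the markers or cell cycle genes listed passed at a limma adjusted p under 0.05, and the share of all genes with negative differences was 49.7%. The sort markers Kit (8.63 to 10.28 over the 6 arrays) and Slamf1 (CD150, 5.95 to 6.65) lay above the limit of 5.152 on every array. Ly6a (Sca-1) was not among the genes tested. Of the markers that the gate excludes, Cd48 was above the limit on 4 arrays and Itga2b (CD41) on every array (6.18 to 6.51). The difference was -0.98 for Kit (adjusted p = 0.374) and -0.16 for Itga2b (adjusted p = 0.966). Of 22 tested mature neutrophil markers 21 were positive, had an unadjusted p under 0.05 and did not overlap between groups, where 5.77% of all genes were apart in that direction, and their summed intensity was 10713 to 18801 in PBS and 34187 to 46057 in G-CSF arrays. Of 15 granulocyte-monocyte progenitor markers 14 were positive, with a summed intensity of 3772 to 4850 in PBS and 6068 to 11051 in G-CSF arrays. Of 8 monocyte and macrophage markers 7 were positive, with sums of 1025 to 1780 and 2201 to 2865. G2/M cell cycle genes were positive in 17 of 19, with sums of 1406 to 1876 and 2356 to 2581. Megakaryocyte and platelet markers were negative in 9 of 10, with sums of 907 to 1115 and 658 to 696, and stem cell markers in 13 of 15, with sums of 8714 to 9918 and 8705 to 11278. The stem cell sums include the bright Ifitm1, 1 of the 2 positive genes, at log2 11.30 to 11.45 in PBS and 12.03 to 12.37 in G-CSF arrays. Mean log2 intensity of the 15 stem cell markers was 8.21 to 8.46 in PBS and 7.74 to 8.15 in G-CSF arrays, without overlap. Erythroid markers were negative in 5 of 7 (sums of 1055 to 1596 and 823 to 987), B lymphocyte markers in 5 of 5 (351 to 847 and 317 to 712) and T and NK markers in 4 of 5 (253 to 304 and 255 to 260). No probeset is listed at 0. The part of these shifts in the lower sterol gene values was not tested.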

How the data were processed

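Gene expression was measured on 6 MoGene 1.0 ST arrays after amplification with the NuGen Ovation system and biotin labelling, per the labels' protocols. RMA was used by the authors to make the deposited intensity values (35554 probesets), as the submitters' processing notes state. The values are on a linear scale, and log2 was taken first. Which program ran RMA, and on how many arrays at once, the sources used here do not say. Median intensity per array was 56.2 to 61.7, and Spearman's rho between arrays was 0.861 to 0.895 within and 0.836 to 0.892 between groups.

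The platform annotation gave 1 gene symbol to 21789 probesets, several to 1621 and none here to 12144. Symbols were updated through RefSeq gene identifiers (21698 matched), and probesets with 1 symbol were used. The dimmest 25% by mean over all 6 arrays (log2 up to 5.152) were left out, and each of the 14994 genes was read from its brightest remaining probeset. This limit belongs to the filter and is no measured background.

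Groups were compared with limma 3.58.1 in R 4.3.3 (lmFit, eBayes, no covariate, two-sided) over all genes, with Benjamini-Hochberg adjustment and a threshold of 0.05. The fit was tested on simulated arrays. An SD is over 3 arrays per group, and their number limits the precision. The text names every member, up to 4 genes with the smallest p of each neighbouring list, and marker lists by their sums, with Ifitm1 also named. Kit, Slamf1, Ly6a, Cd48 and Itga2b were named as sort markers. The members and lists were chosen with earlier results of these data known. Alternatives changed the filter, normalization, variance model, array weights, probeset rule and replicate block, or left out arrays. Leaving out both replicate 1 arrays was chosen after seeing the data. Promoters were read from RefSeq (GRCm38.p6). Figures were drawn with matplotlib 3.10.9.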

Additional observations from a re-analysis of the deposited data

How the results depend on the processing

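Under the 15 alternatives, 0 of the 24 tested members passed at a limma adjusted p under 0.05 (smallest 0.364, Nsdhl with the replicate block). The median member difference stayed negative, from -0.33 to -0.11 when 1 array was left out, and 17 members kept their direction in every alternative in which they were tested. Members at an unadjusted limma p under 0.05 ranged from 0 (G-CSF replicate 1 left out) to 4 (PBS replicate 1 or G-CSF replicate 2 left out, or the replicate block). There was 1 without both replicate 1 arrays, an alternative chosen after seeing the data. The share of all genes at that level in each alternative is not given here, so these counts have no background beside them. The step from lanosterol to cholesterol had a median of -0.58 with the dimmest 50% left out and of -0.43 to -0.084 with 1 array left out, lowest without PBS replicate 1. From squalene to lanosterol the median was -0.58 without G-CSF replicate 3 and 0.01 without PBS replicate 2, its range with 1 array left out, and 0.025 with the mean of all probesets. Leaving out 1 array, Insig2 ranged from -1.39 to -0.19, Hmgcs1 from -0.80 to -0.16, Msmo1 from -1.21 to -0.38 and Cyp51 from -1.23 to -0.51. The medians ranged from -0.175 to -0.062 for the mevalonate step, -0.41 to -0.12 for the isoprenoid step and -0.35 to -0.15 for the regulators. Tm7sf2 ranged from 0.11 to 0.52, Sc5d from -0.70 to -0.16, Stard4 from -0.74 to -0.22, Pgrmc1 from -1.20 to -0.29 and Scd2 from -0.86 to -0.085. Insig1 ranged from -1.11 to -0.66, and Nsdhl from -0.94 to -0.53.

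Signs turned in 7 members. Fdft1 was at 0.025 with the mean of all probesets, 0.14 without both replicate 1 arrays and -0.58 to 0.29 with 1 array left out. Dhcr7 was at 0.013 with array weights, 0.019 without both replicate 1 arrays and -0.044 to 0.057 with 1 array left out. Without both replicate 1 arrays, Lss was at -0.10 and Srebf1 at 0.059. With 1 array left out, the range was -0.073 to 0.18 for Lss, -0.28 to 0.065 for Srebf1, -0.077 to 0.19 for Lbr, -0.19 to 0.077 for Hsd17b7 and -0.14 to 0.39 for Fdps. The causes were not tested. Vldlr passed with quantile normalization again (2.65, limma adjusted p = 0.0392) and with the replicate block (2.67, 0.0488), in a range of adjusted p from 0.0392 to 0.388.

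Same-numbered arrays correlated by 0.29, 0.02 and 0.19 in their deviations from the group means, and differently numbered arrays by -0.28 to 0.10. The main fit took the arrays as independent pools, and whether the numbers pair the samples was not tested. With the replicate block the median member difference was -0.25, and 4 members had an unadjusted limma p under 0.05 (Nsdhl, Msmo1, Hmgcs1 and Insig1). The share of all genes at that level in the blocked fit is not given here, so this count has no background beside it.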
